A study of Arabidopsis thaliana with 12 samples.

Results

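AZI1, EARLI1 and their 4 neighbours AT4G12490, AT4G12500, AT4G12510 and AT4G12520 are 6 genes of 28642 listed for Arabidopsis thaliana, and lie side by side on chromosome 4. They were taken by position, as AT4G12470 to AT4G12520. The array was chosen by a measured value, the spread of the exon reads of AT4G12490 between the libraries, so the values of AT4G12490 are a description here and receive no test. Of the 6 genes, 5 had enough reads to enter the test over all genes, and AT4G12500 did not.

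The study asked how whole wild-type seedlings respond to acyl-CoAs, in which a fatty acid is joined to coenzyme A through a thioester. One group received C18:0 CoA, which has a saturated chain, one C18:1 CoA, whose chain of the same length has a double bond, and one C16:0 CoA, which has a shorter saturated chain. Each was given for 90 min at 0.1% with 0.01% of the surfactant Pluronic F68 to seedlings aged 14 days in liquid medium with sucrose, and the control seedlings received 0.01% Pluronic F68 alone. All seedlings were therefore in the surfactant, and no group without it was analysed here. Each of the 4 groups has 3 replicates, described in the labels as biological, and each replicate is a pool of 80 plants. Whether pools were grown in separate experiments is not given in the sources used here, so the spread between them may be partly technical. Because whole seedlings were harvested, more cells of an expressing type and more RNA per cell cannot be told apart.

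The 6 genes encode small secreted proteins with a signal peptide and, at the C-terminal end, a cysteine-rich domain related to lipid-transfer proteins, which in AZI1 and EARLI1 follows a proline-rich stretch. AZI1 was named azelaic acid induced 1, after a dicarboxylic acid that accumulates in infected leaves, and it is needed for azelaic acid to prime distant leaves for systemic acquired resistance. EARLI1, also written pEARLI1, was named for its early induction by aluminium and is known for induction by cold and other stresses. The other 4 genes carry no symbol beyond their locus name in the RefSeq table of the organism.

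Each gene is a single exon on the minus strand in TAIR10. AZI1 (AT4G12470) spans 7401109 to 7401907 (799 bases), EARLI1 (AT4G12480) 7406105 to 7406937 (833 bases) and AT4G12490 7409621 to 7410406 (786 bases). AT4G12500 spans 7414150 to 7414927 (778 bases), AT4G12510 7417236 to 7417803 (568 bases) and AT4G12520 7421056 to 7421738 (683 bases). The gaps between neighbours measure 2308 to 4197 bases, so the array covers 20630 bases.

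The upstream sequences of AZI1 and EARLI1 are printed because these genes gave most of the reads of the array. Each is the 250 bases before the RefSeq gene start (build TAIR10.1, minus strand), 5′ to 3′, with TTGAC (or GTCAA, its reverse complement) and TATAAA (or TTTATA) in capitals. The W-box, to which WRKY transcription factors bind, is TTGAC followed by C or T, and TATAAA is the core of the TATA box. AZI1 covers chr4:7401952-7402201 and EARLI1 chr4:7406995-7407244.
AZI1: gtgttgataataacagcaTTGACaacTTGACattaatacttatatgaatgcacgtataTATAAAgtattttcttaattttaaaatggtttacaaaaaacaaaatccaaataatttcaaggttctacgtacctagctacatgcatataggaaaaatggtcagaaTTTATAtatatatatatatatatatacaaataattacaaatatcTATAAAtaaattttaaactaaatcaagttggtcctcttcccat
EARLI1: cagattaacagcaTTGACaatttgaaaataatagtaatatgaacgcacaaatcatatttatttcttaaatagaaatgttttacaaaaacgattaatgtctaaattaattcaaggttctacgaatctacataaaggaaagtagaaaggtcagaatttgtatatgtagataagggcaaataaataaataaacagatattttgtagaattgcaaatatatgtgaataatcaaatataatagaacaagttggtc

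The windows of AZI1, EARLI1, AT4G12510 and AT4G12520 were searched on both strands. TTGAC stood in 2 of these 4, those of AZI1 and EARLI1, and in 44.93% of the 27443 windows of this length in the genome. It lay 232 and 224 bases before the start of AZI1 and 237 before that of EARLI1. Each of these copies is followed by an A, so none is a full W-box. TATAAA stood in 3 of the 4, all but that of EARLI1, against 47.35% of all windows. In AZI1 the copy nearest to the start began 43 bases before it. TGACG (18.6% of all windows), which can share letters with TTGAC, was in 0 of the 4, as were CACGTG (6.49%), CCGAC (12.0%) and GCCGCC (1.87%).

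The coding sequences fall into 3 pairs of closest relatives. AT4G12510 and AT4G12520 were 99.5% identical over 390 coding bases each and shared an identical run of 371 bases. AT4G12490 and AT4G12500 were 90.4% identical over the alignment and AZI1 and EARLI1 84.1%, while the least alike pair had 51.8%. EARLI1 was nearly as close to AT4G12500, at 83.3%, so its pairing with AZI1 is not sharp. Upstream, the identity of the windows was 63.2% for AZI1 with EARLI1, the highest among the 4 windows searched. The windows of AT4G12510 and AT4G12520 are offset against each other and shared a run of 66 identical bases.

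These similarities limit the counts, because the deposited exon counts hold uniquely placed reads only. Every stretch of 50 bases in AZI1 and EARLI1 occurs once in the genome (100% of both). In AT4G12490 93.2% and in AT4G12500 93.1% of such stretches are unique, the rest being shared with each other. In AT4G12510 and AT4G12520 only 38.0% and 38.2% are, and the shared ones lie in the other gene of that pair. The levels of AT4G12510 and AT4G12520, and the split of reads between them, are therefore uncertain.

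Exon reads per library ranged from 348140 (C18:1 CoA replicate 1) to 6126277 (Control replicate 1), a 17.6-fold span. A level of 3 reads stood for 0.476 to 8.85 CPM (counts scaled to TMM-adjusted library size), a floor that covers counting error only. The shallowest libraries were replicate 1 of C18:1 CoA and replicate 2 of both C18:0 CoA and C16:0 CoA. Markers of both organs were present in all 12 libraries, with 11 to 13 of 13 root markers and 12 of 12 green tissue markers read. The labels give a sequencing lane and an index set per library: lanes 1 to 4 hold a pair of libraries each, and the second index set holds C18:1 CoA replicate 3 and all C16:0 CoA libraries. Index set and the C16:0 CoA treatment can be separated only through that 1 library.

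Per length, the 6 genes span a wide range of levels. AZI1 averaged 1082 CPM per kb of exon over the 12 libraries, higher than 99.8% of the 17036 genes tested, and EARLI1 594 CPM per kb, higher than 99.0%. AT4G12490 averaged 123, AT4G12520 20.9, AT4G12500 19.9 and AT4G12510 5.24 CPM per kb. The averages of AT4G12490 and AT4G12500 describe no single library, as the values by library show.

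**Figure D1:**
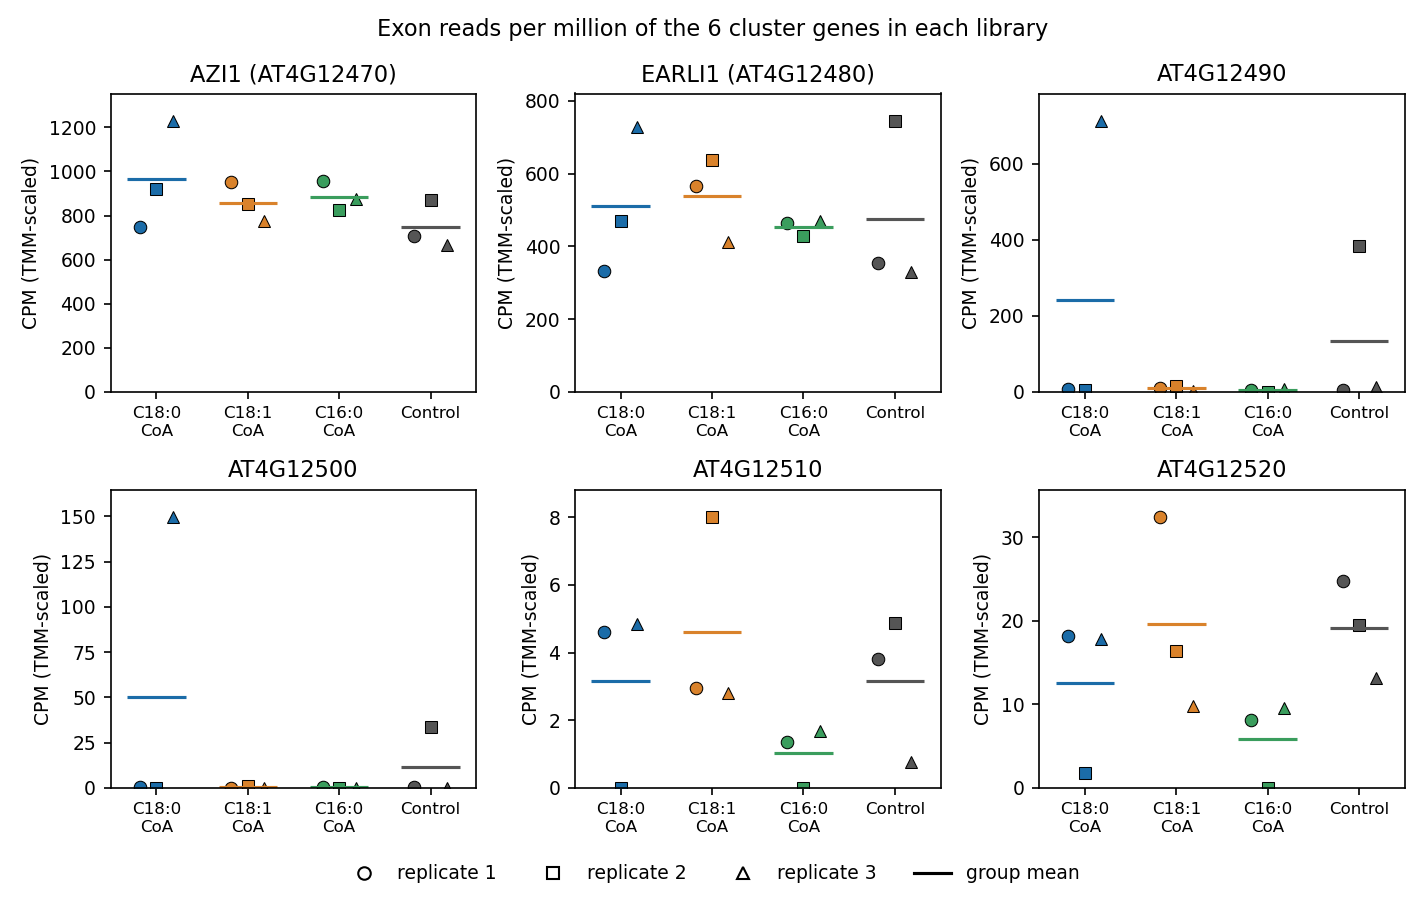
Level of each of the 6 genes in each library (vertical axis, TMM-scaled CPM from 0; horizontal axis, group), with 1 marker per replicate and a line at the group mean. AT4G12490 and AT4G12500 stand far above 0 in C18:0 CoA replicate 3 and Control replicate 2, with 714 and 383 CPM for AT4G12490, and near 0 elsewhere.

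AZI1, the azelaic acid priming gene, was abundant in every library and differed little between groups. Its level was 748, 922 and 1231 CPM in C18:0 CoA replicates 1 to 3, against 707, 869 and 664 CPM in the control. With C18:1 CoA it was 950, 852 and 775 CPM, and with C16:0 CoA 956, 826 and 874 CPM. The treated and control libraries overlap in each of these comparisons, with the lowest value in Control replicate 3 and the highest in C18:0 CoA replicate 3.

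The fitted log2 fold changes of AZI1 against control were all positive and did not pass the test. They were 0.37 ± 0.20 (SE; 95% interval -0.04 to 0.78) with C18:0 CoA, 0.20 ± 0.20 (-0.21 to 0.61) with C18:1 CoA and 0.25 ± 0.20 (-0.16 to 0.66) with C16:0 CoA, with edgeR adjusted p of at least 0.988. For the mean of the 3 acyl-CoAs the change was 0.27 ± 0.16 (-0.07 to 0.61), in a comparison where 2.49% of all genes had an unadjusted p under 0.05. The 3 comparisons use the same control libraries and are not independent of each other. In the edgeR fit 0 of the 17036 genes passed an adjusted p of 0.05 in any of the 7 comparisons made (0% called), so the absence of a call for AZI1 says little about AZI1 in particular. At an unadjusted p under 0.05 stood 321 genes (1.88%) with C18:0 CoA, 339 (1.99%) with C18:1 CoA and 686 (4.03%) with C16:0 CoA. DESeq2 called 0, 2 and 0 genes and limma voom 0, 1 and 0 in the same comparisons. AZI1 is not among the genes with a small unadjusted p, its smallest being 0.0729 with C18:0 CoA.

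EARLI1, the stress-induced neighbour, varied more between libraries than between groups. It stood at 331, 470 and 729 CPM in C18:0 CoA replicates 1 to 3, against 353, 746 and 329 CPM in the control. With C18:1 CoA it stood at 567, 636 and 411 CPM, and with C16:0 CoA at 464, 428 and 471 CPM. The highest values are those of C18:0 CoA replicate 3 and Control replicate 2, followed closely by C18:1 CoA replicate 2. The fold changes were 0.10 ± 0.30 (95% interval -0.53 to 0.72) with C18:0 CoA, 0.17 ± 0.30 (-0.46 to 0.80) with C18:1 CoA and -0.07 ± 0.30 (-0.70 to 0.56) with C16:0 CoA (log2 ± SE, edgeR adjusted p of at least 0.996). Without Control replicate 2 the last was 0.40, so its sign rests on that library.

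AT4G12490 was low in 10 libraries and abundant in 2. In C18:0 CoA replicates 1 to 3 it had 32, 3 and 1767 reads (7.35, 5.26 and 714 CPM), against 30, 1889 and 15 reads (4.76, 383 and 11.6 CPM) in the control. With C18:1 CoA it had 3, 47 and 13 reads (8.85, 14.5 and 3.05 CPM), and with C16:0 CoA 13, 0 and 11 reads (5.85, 0 and 6.20 CPM). One high library belongs to a treated group and the other to the control, and the 10 remaining ones lie between 0 and 14.5 CPM with a median of 6.03 CPM. The 0 in C16:0 CoA replicate 2, the shallowest library of its group, allows up to 5.33 CPM.

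The group means of AT4G12490 follow from these 2 libraries. They were 242 ± 408 CPM with C18:0 CoA, 8.80 ± 5.73 with C18:1 CoA and 4.02 ± 3.48 with C16:0 CoA, against 133 ± 216 CPM in the control (SD, n = 3 each). The fitted log2 fold changes, given without a test or an SE, were 0.87, -4.00 and -4.73 with C18:0, C18:1 and C16:0 CoA. Without Control replicate 2 they became 5.18, 0.31 and -0.43. Without C18:0 CoA replicate 3 the first became -4.29, and without both libraries the 3 values were -0.14, 0.22 and -0.61. AT4G12490 had a biological coefficient of variation of 1.065, rank 1 of the 17036 genes, which is the property it was chosen for. AT4G12510 had 0.414 (higher than 95.3% of the genes), AT4G12520 0.370 (91.5%), EARLI1 0.272 (70.4%) and AZI1 0.191 (30.4%).

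**Figure D2:**
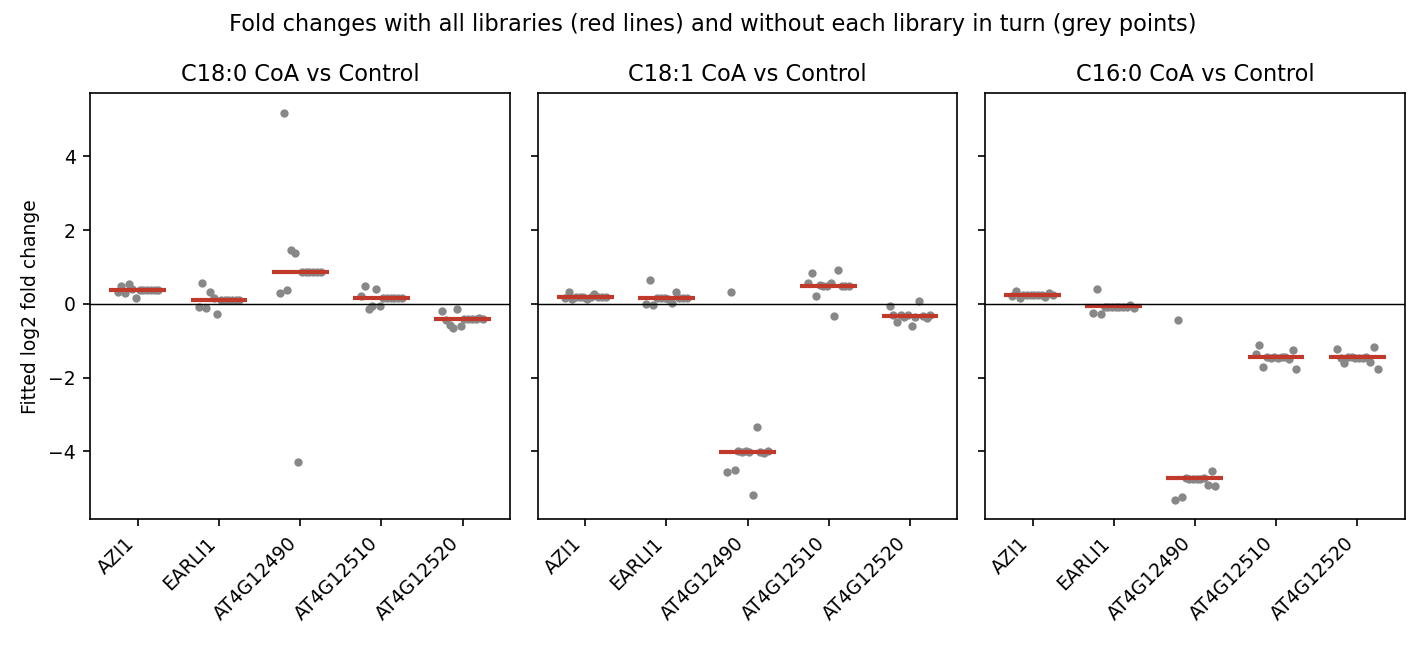
Fitted log2 fold change against control (vertical axis) of the 5 genes in the test, in 1 panel per acyl-CoA, with all 12 libraries (red lines) and without each library in turn (grey points). AT4G12490 with C18:0 CoA ranges from -4.29 to 5.18, while AZI1 stays between 0.16 and 0.53.

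AT4G12500, the closest relative of AT4G12490 and its neighbour in the array, was high in the same libraries. It had 2, 0 and 371 reads (0.460, 0 and 150 CPM) in C18:0 CoA replicates 1 to 3, against 1, 166 and 0 reads (0.159, 33.7 and 0 CPM) in the control. With C18:1 CoA it had 0, 4 and 0 reads, and with C16:0 CoA 1, 0 and 0 reads. Outside C18:0 CoA replicate 3 and Control replicate 2 its highest level was 1.23 CPM, in C18:1 CoA replicate 2, which was also the highest of those 10 libraries for AT4G12490. With reads at this level in too few libraries it did not pass the filter on low counts.

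In the high libraries AT4G12490 gave several reads for each of AT4G12500. There were 4.76 reads of AT4G12490 per read of AT4G12500 in C18:0 CoA replicate 3, against 11.4 in Control replicate 2. These are single libraries, and the difference was not tested.

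The high libraries changed the make-up of the whole array. AT4G12490 took 25.1% of the reads of the 6 genes in C18:0 CoA replicate 3 (95% exact interval 24.1 to 26.1) and 18.6% in Control replicate 2 (17.9 to 19.4). In the other 10 libraries its share was 0 to 1.14%. The intervals cover counting error within a library only, not the spread between pools. The 6 genes together took 0.282% of all exon reads in C18:0 CoA replicate 3 and 0.210% in Control replicate 2, against 0.101% to 0.159% in the others. Without AT4G12490 and AT4G12500 the other 4 genes still summed to 1983 CPM in C18:0 CoA replicate 3 and 1639 CPM in Control replicate 2, above the 1007 to 1552 CPM of the other 10 libraries. Most of that sum is AZI1 and EARLI1. EARLI1 gave 0.593 reads per AZI1 read in C18:0 CoA replicate 3 and 0.859 in Control replicate 2, against 0.443 to 0.747 in the other libraries, so only the control library lies outside that range.

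**Figure D3:**
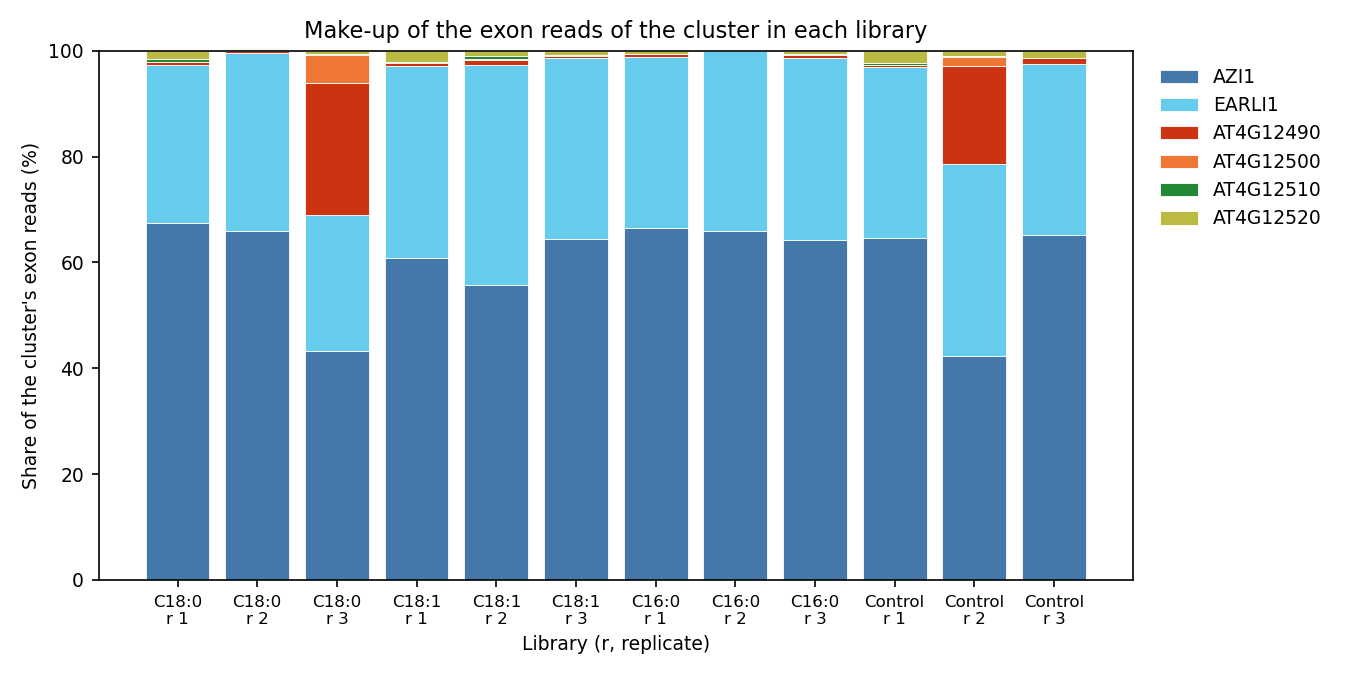
Share of the exon reads of the 6 genes that each gene holds (vertical axis, percent of the array's reads) in each of the 12 libraries (horizontal axis). AZI1 and EARLI1 hold nearly all reads except in C18:0 CoA replicate 3 and Control replicate 2, where AT4G12490 holds 25.1% and 18.6%.

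AT4G12510 and AT4G12520, the near-identical pair at the far end, were low, and in C18:0 CoA replicate 3 and Control replicate 2 they lay within the range of the other libraries. AT4G12520 stood at 18.2, 1.75 and 17.8 CPM in C18:0 CoA replicates 1 to 3, 32.5, 16.4 and 9.84 CPM in C18:1 CoA replicates and 8.10, 0 and 9.59 CPM in C16:0 CoA replicates, against 24.7, 19.5 and 13.1 CPM in the control. All 3 C16:0 CoA libraries lay below all 3 control libraries, as they did for 5.96% of all genes tested. The log2 fold change was -1.45 ± 0.56 (SE; 95% interval -2.62 to -0.27), with an unadjusted p of 0.0187 and an edgeR adjusted p of 0.988. It does not pass the test, and 4.03% of all genes had an unadjusted p under 0.05 in this comparison. With the index set as a term the value was -0.36.

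With C18:0 and C18:1 CoA the fold changes of AT4G12520 were -0.41 ± 0.49 (-1.44 to 0.62) and -0.32 ± 0.52 (-1.41 to 0.76). The C16:0 CoA libraries also had less of the summed root markers, at 1179 to 1612 CPM against 1649 to 2143 CPM in the control. Root markers had a median log2 fold change of -0.42 there (3 of 12 positive) and of -0.52 with C18:1 CoA (1 of 12 positive), beside a median of 0.00 over all genes. Their part in the values of AT4G12520 was not tested.

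AT4G12510 stood at 4.60, 0 and 4.85 CPM in C18:0 CoA replicates 1 to 3, 2.95, 8.02 and 2.81 CPM in C18:1 CoA replicates and 1.35, 0 and 1.69 CPM in C16:0 CoA replicates, against 3.81, 4.87 and 0.772 CPM in the control. These levels come from 26 reads or fewer per library, and the lowest control value, from 1 read, lies within the C16:0 CoA range. Its log2 fold changes were 0.15 ± 0.67, 0.49 ± 0.66 and -1.45 ± 0.86 with C18:0, C18:1 and C16:0 CoA, none past the test (edgeR adjusted p of at least 0.988). With the index set as a term the last was -0.19.

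The acyl-CoAs were compared with each other in 3 pairs at the same dose and time, with p adjusted over all genes. C18:1 CoA differs from C18:0 CoA by a double bond. Between them AZI1 differed by -0.17 (95% interval -0.59 to 0.24), EARLI1 by 0.07 (-0.56 to 0.70), AT4G12510 by 0.34 (-1.12 to 1.80) and AT4G12520 by 0.09 (-1.05 to 1.23) on the log2 scale. None of these passed (edgeR adjusted p = 1.00, rounded), and the intervals leave room for changes of either sign. Over all genes 450 (2.64%) had an unadjusted p under 0.05.

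C18:0 CoA and C16:0 CoA, saturated chains of different length, differed for AZI1 by 0.13 (-0.29 to 0.54) and for EARLI1 by 0.17 (-0.46 to 0.80). AT4G12510 differed by 1.60 (-0.26 to 3.45) and AT4G12520 by 1.04 (-0.19 to 2.26), also short of the test, and 2.11% of all genes had an unadjusted p under 0.05. C18:1 CoA against C16:0 CoA, which differ in both features, gave -0.05 (-0.46 to 0.37) for AZI1 and 0.24 (-0.39 to 0.87) for EARLI1. There AT4G12510 was 1.94 ± 0.88 higher (SE; 0.10 to 3.77; unadjusted p = 0.0398) and AT4G12520 1.12 ± 0.60 (-0.14 to 2.39; unadjusted p = 0.0787), both with edgeR adjusted p = 1.00. The groups did not overlap for either gene, as for 3.81% of all genes in that direction, while 2.84% had an unadjusted p under 0.05, and most 50-base stretches of the 2 genes are not unique to them. None of the 4 genes given a test passed it in any of the 7 comparisons.

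The authors' deposited table gives another view of the pair without and with the double bond. In the authors' deposited table, which uses Baggerley's test on proportions of reads, AZI1 has an FDR-corrected p of 1.354e-07 and a fold change of -1.113 for C18:1 against C18:0 CoA. In the authors' deposited table EARLI1 has 0.004537 and 1.095 for that pair. The edgeR fit gave the same direction for both genes, but from the same libraries, so this adds no separate support. Its unadjusted edgeR p was 0.387 for AZI1 and 0.811 for EARLI1, and the C18:1 and C18:0 CoA libraries overlapped for both. All other corrected p-values of the array in the authors' deposited table, leaving out those of AT4G12490, are 0.2544 or higher.

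Whether the genes moved together across libraries was asked for the 10 pairs of the 5 genes that passed the filter. The p-values below are adjusted over all 10, and none is given for the 4 pairs with AT4G12490. AZI1 and EARLI1 were correlated over the 12 libraries (log2 CPM, Pearson r = 0.77, permutation p = 0.00214, adjusted over the pairs 0.0107; Spearman rho = 0.74, permutation p = 0.00763, adjusted 0.0455). Without the 2 libraries farthest from the median of AZI1 the r was 0.62 (permutation p = 0.0504), so the pass of the test rests partly on them. Without Control replicate 2 and C18:0 CoA replicate 3 it was 0.79, and within the 8 libraries of the first index set 0.80 (exact permutation p = 0.0159). The second index set holds 4 libraries, too few for a value.

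AT4G12510 and AT4G12520 had r = 0.83 (permutation p = 0.00088, adjusted 0.0088) and rho = 0.73 (permutation p = 0.0091, adjusted 0.0455). Without the 2 farthest libraries, C18:0 CoA replicate 2 and C16:0 CoA replicate 2, r was 0.51 (permutation p = 0.127), so its pass of the test rests on those shallow libraries. Without the 3 shallowest libraries r was 0.65 (adjusted permutation p = 0.154), and for deviations from group means it was 0.78 (adjusted permutation p = 0.00835). Within the first index set the exact permutation p was 0.0905 (r = 0.78). AZI1 or EARLI1 with AT4G12510 or AT4G12520 gave r of -0.01 to 0.39, and none of the 4 passed. For AT4G12490 no r with the other genes of the array is given over all libraries, since 2 libraries stand apart. Over the other 10 it was -0.03 with AZI1, 0.18 with EARLI1 and 0.43 with AT4G12500, which had at most 4 reads in each. With AT4G12510 it was 0.57 and with AT4G12520 0.79 over those 10, and -0.13 and 0.31 without the 2 farthest of them (replicate 2 of C18:1 CoA and of C16:0 CoA).

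The genes whose pattern was most like that of AT4G12490 were ranked by Pearson r of log2 CPM over the 12 libraries, among 13416 genes outside the array that passed the filter and had a mean of at least 10 CPM. The measure is a ranking and carries no test, and it rests mainly on the 2 high libraries. The first was EXT4, an extensin of the cell wall (AT1G76930, r = 0.95), at 838 CPM in C18:0 CoA replicate 3 and 712 CPM in Control replicate 2, against 123 to 283 CPM in the other 10. The second was PRXCB, a secreted peroxidase that forms hydrogen peroxide in defence (AT3G49120, r = 0.91), at 201 and 174 CPM in the same libraries and 29.3 to 64.9 CPM in the others. Of the genes ranked, these 2 were above 0.9 and 10 were above 0.8.

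The next 6 had smaller contrasts. SRG3, a glycerophosphodiester phosphodiesterase gene (AT3G02040, r = 0.85), stood at 56.5 CPM in C18:0 CoA replicate 3 and 67.5 CPM in Control replicate 2, against 29.5 to 47.2 CPM elsewhere. AT4G37520, listed without a symbol (r = 0.84), stood at 227 and 185 CPM against 44.4 to 140 CPM. GLP5, a germin-like protein found at plasmodesmata (AT1G09560, r = 0.84), stood at 146 and 162 CPM against 72.8 to 117 CPM. For AT3G13062 (r = 0.83) the values were 44.0 and 50.9 CPM against 28.4 to 40.9 CPM.
AT2G25510 (r = 0.82) was at 72.7 CPM in C18:0 CoA replicate 3 and 179 CPM in Control replicate 2, against 0 to 41.3 CPM. ERD5, the proline dehydrogenase of proline breakdown (AT3G30775, r = 0.81), was at 141 and 152 CPM against 44.4 to 128 CPM. Each of these 8 genes, which the ranking picked for this pattern, was highest in the same pair of libraries, as were 103 of the 13416 genes ranked. Within the other 10 libraries, which the ranking also used, their r with AT4G12490 was 0.37 to 0.78. Over the 9 deeper libraries, which hold both high ones, it was 0.81 to 0.96. The shallow C16:0 CoA replicate 2 had 0 reads of AT4G12490. Of those 10 libraries it was also the lowest for EXT4, AT4G37520, GLP5, AT3G13062, AT2G25510 and ERD5, but not for PRXCB and SRG3. No r over the 10 without it was computed for these genes.

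**Figure D4:**
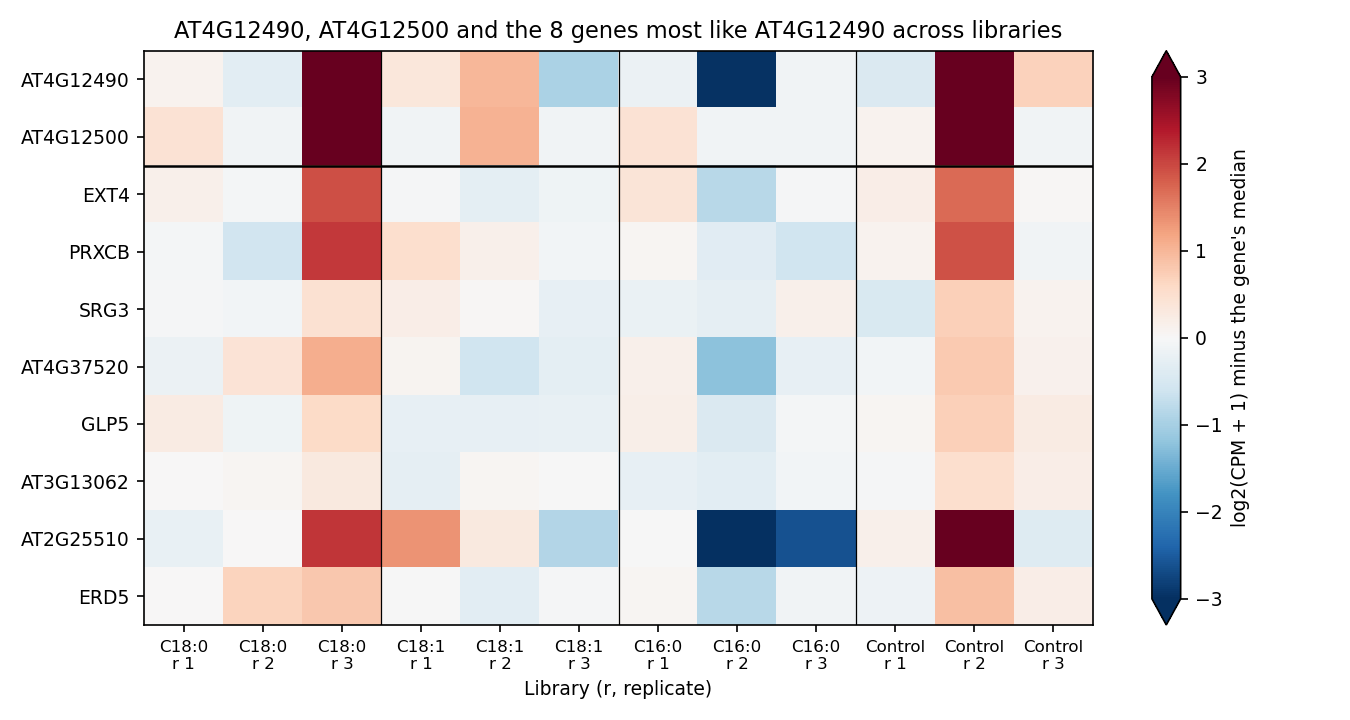
Level of AT4G12490, AT4G12500 and the 8 genes ranked most like AT4G12490 (rows) in each library (columns), as log2(CPM + 1) minus the gene's median, with colours ending at 3 in either direction. All 10 rows are highest in C18:0 CoA replicate 3 and Control replicate 2, and EXT4 reaches 838 and 712 CPM there.

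The lane and the organ markers were read for the same libraries. C18:0 CoA replicate 3 is the only library of the series in lane 6. C16:0 CoA replicate 1, which shares lane 2 with Control replicate 2, had 5.85 CPM of AT4G12490 against 383 CPM. The summed root markers were 1869 CPM in C18:0 CoA replicate 3 and 2092 CPM in Control replicate 2, within the 1179 to 2143 CPM of all libraries. The summed green tissue markers were 8354 and 8420 CPM there, within 5465 to 15446 CPM. With each marker weighted equally (median log2 CPM, centred on the 12 libraries) the root score was 0.33 in C18:0 CoA replicate 3 and 0.57 in Control replicate 2, the highest of all 12, with -0.59 the lowest. The green tissue score was -0.13 and -0.15, within -0.71 to 0.79. The part of either organ in the values of AT4G12490 was not tested.

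Of the genes next to the array, ORP2B and AT4G12545 passed the filter on low counts. Neither stood above its median in both high libraries. On the AZI1 side lies ORP2B, an oxysterol-binding protein-related gene (AT4G12460). It stood at 31.1 CPM in C18:0 CoA replicate 3 and 40.4 CPM in Control replicate 2, its highest library. Its median over all libraries was 34.4 CPM and its lowest value 12.4 CPM. APT4 and AT4G12450 beyond it had at most 9 and 18 reads in a library. On the other side AT4G12530 and AT4G12540 had at most 3 and 15 reads. AT4G12530 had its highest level, 0.608 CPM, in Control replicate 2 and 0.404 CPM in C18:0 CoA replicate 3, against a median of 0. Reads of the neighbours that failed the filter are too few to show whether they shared the pattern. AT4G12545, which encodes another cysteine-rich relative, stood at 91.3 CPM in C18:0 CoA replicate 3 and 111 CPM in Control replicate 2. Its median was 101 CPM and its range 64.9 to 112 CPM.

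Related genes outside the array, AT4G12530 and AT4G12545 among them, gave no called change in the edgeR fit, as no gene tested did. Of 16 listed relatives with the same cysteine-rich domain 13 were tested and 0 passed, with median log2 fold changes of 0.06, 0.06 and -0.15 with C18:0, C18:1 and C16:0 CoA. The most abundant were AT2G45180, at 1053 ± 120, 908 ± 78.4 and 777 ± 167 CPM in the C18:0, C18:1 and C16:0 CoA groups, against 983 ± 45.3 CPM in the control (SD, n = 3 each), AT2G10940 and CWLP. The last, a cell wall-plasma membrane linker protein gene, had log2 fold changes of 0.16 ± 0.19, 0.29 ± 0.19 and 0.30 ± 0.19 (SE).

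Lipid-transfer proteins, which bind fatty acids and other lipids in the cell wall and cuticle, had 9 of 14 genes tested and 0 past the test. Their median log2 fold changes were 0.31, 0.15 and 0.31, with 8, 6 and 9 of the 9 positive, beside a median of 0.00 over all genes in each comparison. LTP5 stood at 921 ± 204, 652 ± 120 and 931 ± 384 CPM in the C18:0, C18:1 and C16:0 CoA groups, against 751 ± 123 CPM in the control. LTP1 (listed as LP1) had log2 fold changes of 0.36 ± 0.30, 0.15 ± 0.31 and 0.47 ± 0.31, and LTP2 0.32 ± 0.38, 0.75 ± 0.39 and 0.50 ± 0.39 (SE). The summed level of this list was highest in the shallow C16:0 CoA replicate 2, at 2857 CPM, against 1222 to 2168 CPM in the other libraries. The summed green tissue markers were also highest there, at 15446 CPM, and C18:0 CoA replicate 2 was next highest for both lists (2168 and 11662 CPM), and the part of organ make-up was not tested.

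Partners of AZI1 in systemic resistance, among them the lipid-transfer-like DIR1, the glycerol kinase gene NHO1 (also GLI1) and the kinases MPK3 and MPK6, had 15 of 20 genes tested and 0 past the test. Their medians were 0.09, -0.11 and 0.15. NHO1 stood at 126 ± 22.6, 115 ± 25.9 and 128 ± 5.87 CPM in the C18:0, C18:1 and C16:0 CoA groups, against 114 ± 9.60 CPM in the control. MPK3, a defence-related kinase, stood at 49.5 ± 5.54, 54.2 ± 9.64 and 54.6 ± 6.53 CPM, against 65.0 ± 3.65 CPM in the control, with log2 fold changes of -0.37 ± 0.21, -0.30 ± 0.21 and -0.28 ± 0.21 (SE). MPK6 had 0.14 ± 0.22, -0.12 ± 0.22 and 0.02 ± 0.22. The summed level of the list was 478 CPM in C18:0 CoA replicate 3 and 500 CPM in Control replicate 2, within the 403 to 554 CPM of all 12 libraries.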

How the data were processed

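RNA-seq libraries from 12 pools of whole seedlings were analysed. The authors deposited exon read counts per gene and library, per the file headers. Reads were mapped to TAIR10, per the submitters' processing notes. The aligner, the strand setting of the counting and the annotation version are not given in the sources used here. This same deposited table holds FDR-corrected p-values and fold changes (a signed score) from the authors' Baggerley tests. Unique and total exon reads were equal in every cell (0 differed). The 1 row without a gene name held 0 reads and was left out.

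The test on the counts was that of edgeR 4.0.16, run in R 4.3.3 (quasi-likelihood test, TMM, filterByExpr with a minimum count of 10, two-sided, Benjamini-Hochberg over 17036 genes, 12 libraries in 1 fit, threshold 0.05) and checked on simulated data. DESeq2 1.42.0 and limma 3.58.1 served as alternatives. CPM are TMM-scaled, and log2 CPM uses a prior count of 2. Permutation p-values over all libraries, and all adjusted ones, count the resamples (of 100000) with at least the same absolute r. Those without the 2 farthest libraries and within the first index set came from SciPy 1.17.1, which doubles the smaller tail. They used 100000 resamples, or all arrangements for 8 libraries. For AT4G12510 with AT4G12520 over all libraries the SciPy permutation p was 0.0019, against 0.00088 by the absolute r. Depth was 348140 to 6126277 exon reads. Replicate pairs differed beyond counting noise, so no library was counted as a repeat.

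The text names the 6 genes of the array, the 8 genes most like AT4G12490, the nearest 3 genes on each side and the 3 most abundant of each gene list; DIR1, named as an example of its list, was chosen for its known role. The genes and lists were chosen with earlier results of these data known. RefSeq symbols matched 28009 identifiers. Upstream windows came from the RefSeq genome (TAIR10.1) and its annotation as the 250 bases before each gene start, in place of a planned window that also reached into the gene. Upstream sequence of part of the array is not reported here. Deposited and RefSeq coordinates overlapped for 100% of 27996 genes compared. Sequences were aligned globally with Biopython 1.88. Of the listed organ markers, the 3 most abundant were PYK10, PHT1;1 and PRP3 for root and PSBO1, LHCA2 and RCA for green tissue.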

Additional observations from a re-analysis of the deposited data

How the results depend on the processing

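None of the 4 genes given a test passed the threshold against control in any alternative that gives that gene a p. AT4G12510 did not pass the filter without Control replicate 2 and C18:0 CoA replicate 3, nor in the fit of C16:0 CoA and control alone. The pairs of acyl-CoAs were not repeated gene by gene, and the fit with a term per lane gives values only. AZI1 had positive fold changes against control throughout, between 0.12 and 0.53 without 1 library and down to 0.00089 with C18:0 CoA and a term per lane. Depth limits the low genes: AT4G12510 never exceeded 26 reads, and a single library sets the level of AT4G12490 in its group. Without each library in turn, the log2 fold change of AT4G12490 ranged from -4.29 to 5.18 with C18:0 CoA, -5.19 to 0.31 with C18:1 CoA, -5.30 to -0.43 with C16:0 CoA and -4.34 to 1.68 for the mean of the acyl-CoAs. The ranges for EARLI1 were -0.26 to 0.58, -0.035 to 0.65, -0.28 to 0.40 and -0.14 to 0.54. For AT4G12510 they were -0.13 to 0.49, -0.32 to 0.91, -1.76 to -1.11 and -0.55 to 0.073, and for AT4G12520 -0.66 to -0.14, -0.61 to 0.091, -1.77 to -1.18 and -0.89 to -0.49.

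Signs also changed elsewhere, and the cause was not tested. With a term per lane, EARLI1 had -0.67 with C18:0 CoA and -0.21 for the mean, AT4G12510 -0.48 (C18:0 CoA) and -0.43 (C18:1 CoA), and AT4G12490 -5.80 (C18:0 CoA). With a length trend removed, EARLI1 had -0.075 with C18:0 CoA and -0.064 for the mean, and AT4G12510 -0.078 with C18:0 CoA. With the index set as a term, EARLI1 had 0.48 with C16:0 CoA, AT4G12510 0.29 for the mean and AT4G12520 0.093 with C18:1 CoA. EARLI1 with C16:0 CoA had 0.014 in limma voom and 0.41 without Control replicate 2 and C18:0 CoA replicate 3, an alternative chosen after seeing the data. Without those libraries r was -0.027 for AZI1 with AT4G12490, -0.16 for AZI1 with AT4G12510 and -0.0043 for EARLI1 with AT4G12520. For AZI1 with AT4G12520 r was 0.29 as deviations from group means and 0.0046 with a prior count of 0.5.

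Counts of called genes, 0 in the reported fit, were 1 for C18:1 CoA against control in limma voom, with no filter, with the length trend removed or in a fit of those groups alone, 2 in DESeq2 and 5 without the 3 shallowest libraries. C16:0 CoA against control had 2 without the 3 shallowest libraries. C18:1 against C16:0 CoA had 1 with no filter, in DESeq2 or without the 3 shallowest libraries. Leaving out 1 library gave 0 to 1 for C18:1 CoA against control and for C18:1 against C16:0 CoA, and 0 otherwise.

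Same-numbered libraries of different groups did not deviate together (r of -0.23 to 0.23, 5 of 18 over 0.1), so the numbers are not taken as pairs. With the replicate block EARLI1 had 0.0013 with C16:0 CoA, and 0 of the 17036 genes tested passed in any comparison.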
